A study of Mus musculus with 18 samples.

Results

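Mouse primary preadipocytes that were first sorted by their surface level of integrin alpha 5, high or low, and then carried through adipogenic differentiation were compared with undifferentiated preadipocytes that had been left as mock. The comparison took 9 of the 18 libraries of the study, 3 in each of 3 groups. All of them were made from wild-type (WT) cells labelled as primary preadipocytes. CD_mock cells came from the epididymal fat (eWAT) of mice on a control diet and received a mock treatment. Itga5-High_DM and Itga5-Low_DM cells had been separated by a cell sorter with an antibody to CD49e, the protein that Itga5 encodes, and were then differentiated. The labels give these sorted cells neither a diet nor a fat depot, and no age or duration of culture is given for any group. Sorting, the culture and the deposited table therefore differ between the sorted groups and CD_mock along with differentiation, and these cannot be told apart here. None of the 18 libraries is titled as unsorted differentiated cells or as sorted undifferentiated cells.

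White adipocytes arise from fibroblast-like precursors when C/EBP-beta and C/EBP-delta induce PPAR-gamma and C/EBP-alpha, which then maintain each other and switch on the genes of fat storage. The maturing cell takes up fatty acids, builds and stores triglyceride in droplets coated by perilipins, releases it by lipolysis and secretes adipokines. Precursors in culture are flat, adherent and rich in actin fibres and matrix, and the cocktails that start differentiation usually contain insulin and a glucocorticoid; which cocktail was applied is not stated in the sources used here.

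The tables of undifferentiated and differentiated cells held 17001 and 15482 gene symbols, of which 15216 were in both, and 13722 of these had enough counts to be tested. Total counts over all symbols of a table, of which 0.0243% to 0.188% lay in symbols not shared, ranged from 11154426 to 13846872 per library in CD_mock, from 12043422 to 16721724 in Itga5-High_DM and from 15944174 to 17288580 in Itga5-Low_DM. Levels are given as CPM, library-size-scaled counts (TMM), and each change is a log2 ratio to CD_mock with its standard error. The labels do not say whether replicates came from separate animals or cultures, so p-values reflect no more than the spread among these 9 libraries, and that spread may be technical. The quasi-likelihood test of edgeR was used throughout, and an adjusted p under 0.05 counted as a call. Itga5-High_DM differed from CD_mock in 10766 genes (78.5% of those tested), 5612 higher (40.9%) and 5154 lower (37.6%). Itga5-Low_DM differed in 10906 genes (79.5%), 5525 higher (40.3%) and 5381 lower (39.2%). The 2 comparisons share the CD_mock libraries. In the same direction in both, 4658 genes were higher (33.9%) and 4434 lower (32.3%), together 9092 genes (66.3%). A change of at least 1 log2 unit in both was found for 1260 of the higher genes (9.18%) and 1311 of the lower ones (9.55%). In 9140 genes (66.6%) the CD_mock libraries did not overlap the 6 sorted libraries. Scaling by total counts in place of TMM moved the median change of all genes by -0.19 and -0.15, and the higher share of the same-direction calls was then 37.3% against 51.2%. All changes below are relative to the TMM scale, on which the median gene stood at 0.04 and 0.02.

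Genes that mark the fat cell were higher in both sorted groups. Adipoq encodes adiponectin, the hormone secreted by fat cells, and read 4.49, 3.28 and 3.58 CPM in CD_mock, 267, 263 and 271 CPM in Itga5-High_DM and 382, 387 and 381 CPM in Itga5-Low_DM. All 6 sorted libraries lay far above the 3 CD_mock libraries (log2 change 6.15 ± 0.0525 in Itga5-High_DM and 6.67 ± 0.0471 in Itga5-Low_DM, adjusted p 2.02e-45 and 1.32e-48 in edgeR's test). Plin1, the perilipin that coats the fat droplet and gates lipolysis, stood at 8.49, 8.17 and 10.2 CPM in CD_mock, 251, 260 and 257 CPM in Itga5-High_DM and 288, 283 and 284 CPM in Itga5-Low_DM. It rose 28.7-fold and 32-fold in Itga5-High_DM and Itga5-Low_DM, with no overlap between the undifferentiated and the sorted libraries. Cebpa, the gene of C/EBP-alpha, measured 125, 132 and 122 CPM in CD_mock, 286, 282 and 275 CPM in Itga5-High_DM and 385, 375 and 390 CPM in Itga5-Low_DM. It too was higher in every sorted library (log2 change 1.16 ± 0.0255 in Itga5-High_DM and 1.60 ± 0.0234 in Itga5-Low_DM). In these bulk samples, fewer cells of a type and less RNA per cell cannot be told apart, so these levels do not say what share of the cells had become adipocytes.

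The promoters of these 3 genes, from 250 bases before to 50 bases after the transcription start, are shown because the genes rose together and represent the 3 layers of the fat cell described below, a regulator, a droplet coat and a secreted product. The sequences are those of RefSeq on GRCm38.p6, at chr16:23146286-23146585 (plus strand) for Adipoq, chr7:79732727-79733026 (minus strand) for Plin1 and chr7:35119043-35119342 (plus strand) for Cebpa. Each is written 5′ to 3′, and capitals mark matches on either strand to CCAAT, to TTGCNNAA and to TATAAA. TTGCNNAA is the C/EBP half-site TTGC followed by any 2 bases and AA, so a match need not hold a second whole half-site.
Adipoq: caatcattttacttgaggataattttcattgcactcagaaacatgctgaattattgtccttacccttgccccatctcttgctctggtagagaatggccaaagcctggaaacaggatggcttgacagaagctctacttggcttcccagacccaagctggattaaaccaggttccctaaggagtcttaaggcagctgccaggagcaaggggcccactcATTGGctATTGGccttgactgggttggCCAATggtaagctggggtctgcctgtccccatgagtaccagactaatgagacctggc
Plin1: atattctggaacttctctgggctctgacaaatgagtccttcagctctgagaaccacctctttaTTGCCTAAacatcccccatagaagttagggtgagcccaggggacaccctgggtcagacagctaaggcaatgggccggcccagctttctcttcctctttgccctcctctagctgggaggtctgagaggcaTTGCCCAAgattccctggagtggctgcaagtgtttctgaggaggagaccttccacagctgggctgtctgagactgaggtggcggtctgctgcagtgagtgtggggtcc
Cebpa: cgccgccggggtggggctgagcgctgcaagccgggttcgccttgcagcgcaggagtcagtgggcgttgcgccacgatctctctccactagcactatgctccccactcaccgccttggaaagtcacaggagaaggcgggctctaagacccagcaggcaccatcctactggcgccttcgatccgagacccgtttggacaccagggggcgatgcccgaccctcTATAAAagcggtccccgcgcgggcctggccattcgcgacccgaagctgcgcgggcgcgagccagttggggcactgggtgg
The window of Adipoq held 3 matches to CCAAT or its reverse complement, that of Plin1 held 2 to TTGCNNAA and that of Cebpa held 1 to TATAAA, starting 30 bases before the start site. Among all 32851 promoters of the same length, 37.4% held CCAAT, 10.8% held TTGCNNAA and 13.6% held TATAAA. Among the 13802 promoters of genes tested the shares were 37.8%, 8.35% and 7.25%. The 1172 promoters of genes higher in both sorted groups by at least 1 log2 unit held CCAAT in 39.3%, TTGCNNAA in 11.0% and TATAAA in 10.4% of cases. For the 1269 promoters of genes lower by as much the shares were 31.8%, 8.59% and 9.30%. These shares were not tested. A match is a run of letters in the window and says nothing on binding.

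The regulators of adipogenesis had smaller median changes than the lists of lipid droplet, lipogenesis, triglyceride synthesis and lipolysis genes. Of 19 transcription factors that promote adipogenesis, 12 rose and 5 fell in both groups, with median changes of 0.24 and 0.58. Pparg, the master regulator, read 25.6, 24.5 and 23.7 CPM in CD_mock, 47.7, 50.1 and 48 CPM in Itga5-High_DM and 45.2, 48.7 and 48.5 CPM in Itga5-Low_DM, again without overlap. Its rise of 1.97-fold and 1.93-fold did not differ detectably between the sorted groups (High minus Low 0.03 ± 0.0482, adjusted p 0.604 in edgeR's test). The largest increases on this list were those of Mlxipl, which encodes the glucose-responsive factor ChREBP (0.592, 14.5 and 16.9 CPM in CD_mock, Itga5-High_DM and Itga5-Low_DM), of Nr1h3, the oxysterol receptor LXR-alpha (log2 1.91 and 1.94), and of Zfp423, a factor of preadipocyte commitment (log2 1.77 and 1.70). Srebf1, a driver of fatty acid synthesis genes, rose 2.05-fold and 2.1-fold. Among the factors that fell were Cebpb, which acts at the start of differentiation (log2 -0.08 and -0.55), and Klf5 (log2 -1.90 and -1.05).

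The genes listed here as restraining adipogenesis did not fall as a group. Of 19 tested, 12 rose and 4 fell, with medians of 0.38 and 0.39. The 12 include Egr2 and Snai2, whose place on such a list is not settled. Sox9, a factor of chondrocytes and early precursors, had the largest rise of them, at 12, 63 and 64.2 CPM in CD_mock, Itga5-High_DM and Itga5-Low_DM (log2 2.38 and 2.42). Twist1 and Snai2, factors of mesenchymal cells, followed with log2 changes of 1.93 and 1.61 and of 1.51 and 1.56. Dlk1, the precursor protein Pref-1, was lower (34.6, 26.4 and 17.8 CPM, log2 -0.40 and -0.96). Against HFD_mock, the mock cells from mice fed a high-fat diet, the change of Dlk1 had the opposite sign, at log2 2.37 and 1.81. Foxc2, a forkhead factor of fat and mesoderm, fell in both (log2 -1.24 and -1.29).

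Proteins of the fat droplet rose broadly. Of 14 tested, 12 rose and 1 fell, with medians of 1.14 and 1.36. Cidec, which promotes the fusion of droplets into large ones, was nearly absent from CD_mock and read 0.499, 0.536 and 0.163 CPM in CD_mock, 317, 319 and 317 CPM in Itga5-High_DM and 471, 462 and 474 CPM in Itga5-Low_DM. Summed over the group, CD_mock held 16 Cidec counts, against 12354 and 22626 in the sorted groups, so the change (log2 9.57 and 10.14) rests on few counts in the denominator. Plin4, a droplet coat of white fat, rose 15.2-fold and 14.3-fold, and Plin2, the coat of small droplets in many cell types, rose 4.89-fold and 4.22-fold. Adig, the small adipocyte protein adipogenin, had 2 counts in all of CD_mock against 659 and 1183 in the sorted groups. Cavin2, a coat protein of caveolae, was the member that fell (log2 -0.83 and -0.36), and against HFD_mock it stood at 0.10 and 0.57. Plin5 and Cidea, droplet proteins of oxidative fat, were in the differentiated table only, and Lep, the gene of leptin, was in neither.

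**Figure D1:**
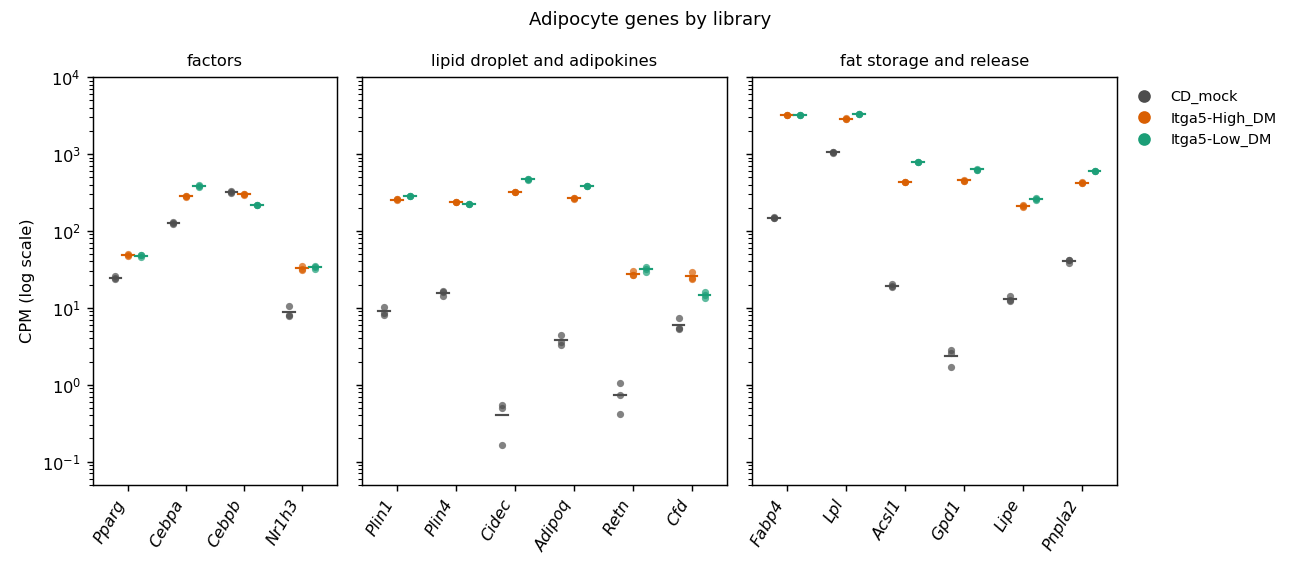
CPM on a logarithmic axis for 16 adipocyte genes in each of the 9 libraries; points are libraries and short lines are group means of 3 libraries. Cidec and Gpd1 lie below 3 CPM in CD_mock and far higher in every sorted library, while Cebpb is the gene that is lower in both sorted groups.

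Uptake, activation and storage of fatty acids moved in the same way. Of 16 genes of fatty acid uptake, binding and activation, 12 rose and 4 fell. Fabp4, the fatty acid carrier of fat cells, read 147, 146 and 151 CPM in CD_mock, 3236, 3232 and 3254 CPM in Itga5-High_DM and 3258, 3231 and 3212 CPM in Itga5-Low_DM. It rose 21.9-fold and 21.8-fold, and the sorted groups did not differ detectably from each other (log2 0.00 ± 0.00862). Acsl1, which activates fatty acids for storage and oxidation, measured 18.6, 20.4 and 19.3 CPM in CD_mock, 435, 432 and 434 CPM in Itga5-High_DM and 785, 796 and 783 CPM in Itga5-Low_DM, with every Itga5-Low_DM library above every Itga5-High_DM library. Lpl, the lipase that frees fatty acids from lipoproteins, was already at 1053 CPM in CD_mock and rose 2.74-fold and 3.12-fold, and Cd36, a fatty acid transporter, rose 4.81-fold and 4.55-fold. The genes that fell included Gpihbp1, the endothelial anchor of lipoprotein lipase (log2 -4.61 and -4.51), and Acsl4, which prefers arachidonic acid (log2 -1.04 and -1.29).

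Of 19 genes of fatty acid synthesis, 13 rose and 6 fell. Fasn, the fatty acid synthase, rose 1.95-fold and 2.41-fold, and Scd1, the desaturase that makes oleate, rose 5.18-fold and 4.71-fold to 4378 and 3981 CPM. Thrsp, a lipogenic protein known as Spot 14, and Elovl3, an elongase of brown fat and skin, each had 4 counts in all of CD_mock. Their levels in the sorted groups were 46.4 and 77.8 CPM for Thrsp and 40 and 39.8 CPM for Elovl3. The members that fell included genes that lengthen or desaturate fatty acids, such as the elongase Elovl6 (log2 -1.27 and -1.24) and Fads2 (log2 -1.38 and -1.51), the desaturase of polyunsaturated fatty acids.

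Glycerol supply and triglyceride assembly gave 9 higher and 3 lower of 13 genes. Gpd1, which makes the glycerol backbone from a glycolytic intermediate, read 2.58, 2.81 and 1.71 CPM in CD_mock, 464, 447 and 450 CPM in Itga5-High_DM and 627, 638 and 622 CPM in Itga5-Low_DM. This was a rise of 189-fold and 262-fold. Agpat2, which acylates lysophosphatidic acid, rose 14.5-fold and 20.2-fold, Dgat2, one of the enzymes of the last step, 4.27-fold and 7.83-fold, and Aqp7, the glycerol channel, 15.5-fold and 15.4-fold. Pck1, an enzyme of glycerol synthesis in fat, was in the differentiated table only. Mogat2, an intestinal acyltransferase, fell from 4.87 CPM (log2 -4.21 and -3.94).

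Lipolysis had the highest median change of all lists tested, at 2.72 and 2.95. Of its 15 members 13 rose, none fell in both, and the other two were not called in both. Lipe, the hormone-sensitive lipase, read 14.3, 12.3 and 12.8 CPM in CD_mock, 214, 206 and 210 CPM in Itga5-High_DM and 261, 264 and 256 CPM in Itga5-Low_DM, and Pnpla2, the lipase of the first step, read 41.4, 41.6 and 37.8 CPM in CD_mock, 425, 428 and 423 CPM in Itga5-High_DM and 604, 599 and 604 CPM in Itga5-Low_DM. Both were higher in every sorted library than in any CD_mock library. Adrb3, the beta-adrenergic receptor of adipocytes, rose 4.35-fold and 5.53-fold, and Adora1, an adenosine receptor that restrains lipolysis, rose from 0.139 CPM in CD_mock (5 counts over the group) to 6.94 and 7.54 CPM. Of 15 adipokines and secreted products, 11 rose and 2 fell. Retn, the gene of resistin, rose 37-fold and 42.5-fold, and Rbp4, the retinol carrier, 25.4-fold and 17.7-fold. Cfd, the complement factor adipsin that is among the most abundant products of mature fat, reached 24.2, 28.8 and 24 CPM in Itga5-High_DM and 13.5, 14.6 and 16 CPM in Itga5-Low_DM. Saa3, an acute phase protein, fell (log2 -1.67 and -2.06), but against HFD_mock its change in Itga5-High_DM was not called (log2 -0.10).

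**Figure D2:**
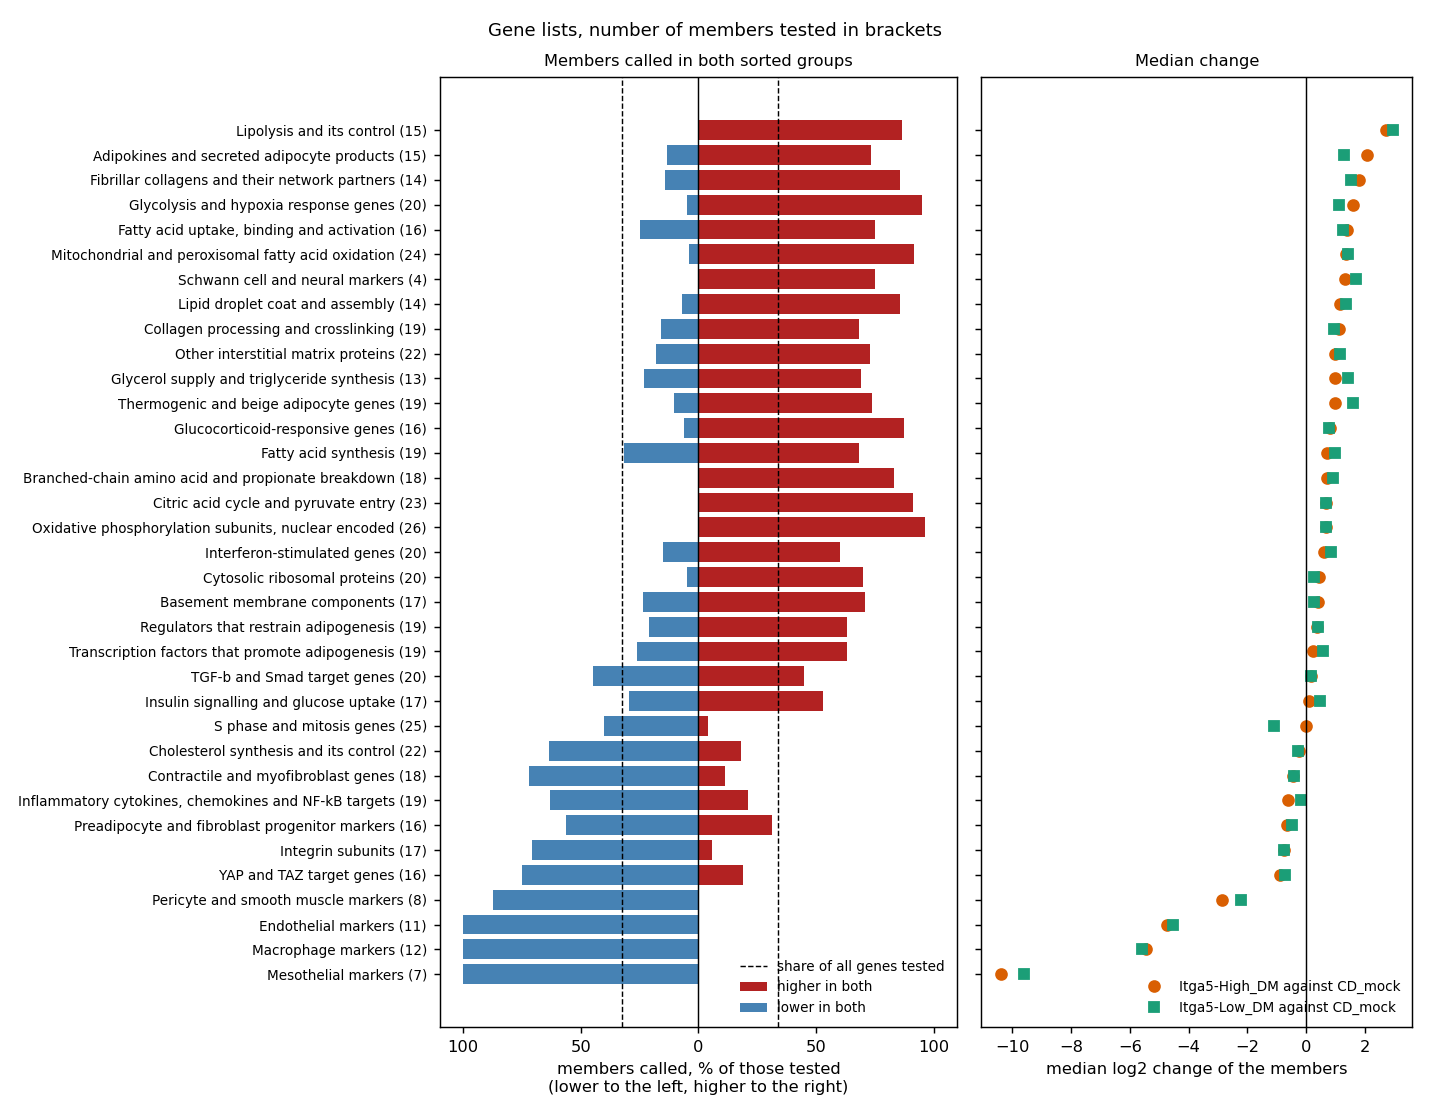
Left, share of tested members of each gene list that were higher (right) or lower (left) in both sorted groups, with dashed lines at the shares among all genes tested (33.9% and 32.3%). Right, median log2 change of the members in Itga5-High_DM (circles) and Itga5-Low_DM (squares); the mesothelial, macrophage, endothelial and pericyte markers have the most negative medians.

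A further comparison, chosen after the values were seen, set the sorted groups against undifferentiated control-diet cells that had received TGF-b1 and the TGF-b receptor inhibitor SB431542 (CD_TGFb_SB), in a fit of all 18 libraries. There 78.9% of 13970 genes differed in Itga5-High_DM and 77.7% in Itga5-Low_DM. Pparg measured 89.3, 89.3 and 85.1 CPM in CD_TGFb_SB and 48.5, 50.7 and 48.5 and 46.7, 50.2 and 50.2 CPM in the sorted groups. It was thus lower after differentiation of the sorted cells than in those undifferentiated cells, by 1.79-fold in each sorted group (log2 -0.84 ± 0.0428 and -0.84 ± 0.0409). Cfd was lower too, at 100 CPM in CD_TGFb_SB against 26 and 15.2 CPM. Adipoq and Fabp4 were higher in the sorted groups, by 3.93-fold and 5.75-fold and by 5.22-fold and 5.31-fold. Lpl lay close to the level of CD_TGFb_SB, with ratios of 1.07 and 1.24. Cidec was 254-fold and 382-fold higher, from 0.987, 1.59 and 1.21 CPM. Genes outside fat storage were higher against this reference too. Acta2 was 1.9-fold and 1.93-fold higher, Itga5 3.26-fold and 2.33-fold and Col1a1 13.7-fold and 11.2-fold.

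Genes of glucose handling were mixed. Of 17 genes of insulin signalling and glucose uptake, 9 rose and 5 fell, with medians of 0.08 and 0.47, and the median in Itga5-High_DM was -0.11 with scaling by total counts. Slc2a4, the insulin-regulated glucose transporter GLUT4, read 4.82, 5.16 and 6.58 CPM in CD_mock, 23.2, 22.7 and 24.9 CPM in Itga5-High_DM and 30.4, 31.7 and 29.2 CPM in Itga5-Low_DM. It rose 4.27-fold and 5.52-fold, as did Trarg1, a protein of its storage vesicles, by 8.66-fold and 6.73-fold. The insulin receptor gene Insr rose 1.33-fold and 1.68-fold, while Irs2, which relays its signal, fell (log2 -0.88 and -0.48).

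Genes of thermogenic fat, which burns fuel to make heat, were higher for 14 of 19 tested members and lower for 2. Scaling by total counts gave 12 higher and 5 lower, and HFD_mock as the reference 14 and 5. Their levels were mostly low. Prdm16, a regulator of brown and beige fat, rose to 6.15 and 6.59 CPM (1.98-fold and 2.12-fold), and Ppargc1a, which drives mitochondrial genes, to 2.27 and 4.59 CPM. Cox7a1, a respiratory subunit of muscle and brown fat, read 0.499, 0.469 and 0.65 CPM in CD_mock, 18.3, 18.9 and 19.3 CPM in Itga5-High_DM and 11.8, 11.5 and 12.1 CPM in Itga5-Low_DM, without overlap. Cox8b, another such subunit, had no count in CD_mock, so its levels of 1.85 and 1.12 CPM were at least 24.2-fold and 14.6-fold higher than a floor of 3 counts over the group. Otop1, a proton channel of beige fat, was likewise at least 114-fold and 35.5-fold higher. Ucp1, the uncoupling protein that defines thermogenic fat, was in the differentiated table only, at 4.37, 4.15 and 4 CPM without TMM scaling in Itga5-High_DM and 4.89, 4.16 and 5.72 CPM in Itga5-Low_DM. The groups overlap, and no level of Ucp1 is given here for CD_mock. Dio2, which activates thyroid hormone in brown fat, fell (log2 -1.66 and -1.59).

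Genes of mitochondrial fuel oxidation were mostly higher. Of 24 genes of fatty acid oxidation, 22 rose and 1 fell. Acadvl, the first dehydrogenase of long-chain oxidation, read 52.2, 50.1 and 54.3 CPM in CD_mock, 230, 225 and 229 CPM in Itga5-High_DM and 248, 241 and 244 CPM in Itga5-Low_DM, with all sorted libraries above all CD_mock libraries. The isoforms of the carnitine transferase that admits fatty acids to mitochondria moved in opposite directions. Cpt1b, the muscle and brown fat form, rose from 0.797 to 17 and 21.7 CPM, and Cpt1a, the liver form, fell from 115 to 42.8 and 59.1 CPM. Of 23 genes of pyruvate entry and the citric acid cycle, 21 rose and none fell in both, led by the pyruvate carrier subunits Mpc2 (log2 1.65 and 2.09) and Mpc1 (log2 1.32 and 1.40). Nuclear-encoded subunits of the respiratory chain rose in 25 of 26 cases, by smaller steps (medians 0.67 and 0.68), with Cycs, cytochrome c, at log2 1.26 and 1.28. In branched-chain amino acid breakdown 15 of 18 rose, among them Bckdhb, a subunit of the rate-limiting dehydrogenase (log2 2.24 and 2.45).

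Cholesterol synthesis went the other way, with 4 higher and 14 lower of 22 genes and medians of -0.26 and -0.27. Idi1, an early isoprenoid enzyme, had the largest fall (log2 -1.26 and -1.07), and the oxidase Msmo1 fell too (log2 -0.73 and -0.74). Scaling by total counts left 2 higher, and against HFD_mock the count turned to 12 higher and 8 lower. Glycolytic and hypoxia-responsive genes rose in 19 of 20 cases. Bnip3, a mitophagy receptor induced by low oxygen, read 31.4, 33.4 and 33.9 CPM in CD_mock, 377, 373 and 368 CPM in Itga5-High_DM and 309, 319 and 322 CPM in Itga5-Low_DM, and Pfkl, a phosphofructokinase, rose 5.98-fold and 4.57-fold. Hexokinase 2 (Hk2) was the exception, with a log2 change of -0.33 and -0.49. Of 16 genes that respond to glucocorticoids, 14 rose and 1 fell. Zbtb16, a zinc finger factor strongly induced by glucocorticoids, rose 14.4-fold and 19.7-fold, Tsc22d3, which encodes GILZ, 7.99-fold and 9.38-fold, and Fkbp5, a chaperone of the receptor, 1.9-fold and 1.97-fold. Dusp1, a phosphatase also induced by glucocorticoids, fell (log2 -1.51 and -1.66). Of 20 cytosolic ribosomal proteins 14 rose and 1 fell, with small medians of 0.42 and 0.25.

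Collagen and its crosslinking enzymes were higher in the differentiated cells than in the mock cells. Of 14 fibrillar collagens and their network partners, 12 rose and 2 fell, with medians of 1.81 and 1.53. Col1a1, the main chain of type I collagen, took the most counts of any gene in each of the 9 libraries, at 8486, 8488 and 8407 CPM in CD_mock, 27566, 27376 and 27202 CPM in Itga5-High_DM and 22044, 21863 and 22035 CPM in Itga5-Low_DM. The sorted libraries did not overlap CD_mock, and the rise was 3.24-fold and 2.6-fold (log2 change 1.69 ± 0.0056 in Itga5-High_DM and 1.38 ± 0.00555 in Itga5-Low_DM). Col3a1, Lox, the enzyme that crosslinks collagen, and Col1a2 showed the largest gains in CPM after it. Lox read 3179, 3171 and 3213 CPM in CD_mock, 11407, 11456 and 11394 CPM in Itga5-High_DM and 10773, 10880 and 10942 CPM in Itga5-Low_DM, again with the 3 CD_mock libraries lowest. Col6a2, a chain of the beaded filaments around adipocytes, and Col5a3, a minor fibril chain, rose 8.49-fold and 7.43-fold and 11.4-fold and 7.34-fold. Col8a1 fell (log2 -2.26 and -1.91).

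Other matrix proteins followed with exceptions. Of 22 interstitial matrix proteins, 16 rose and 4 fell. Postn, periostin, read 1149, 1167 and 1137 CPM in CD_mock, 4926, 4947 and 4957 CPM in Itga5-High_DM and 7034, 7053 and 7029 CPM in Itga5-Low_DM, and Fmod, a proteoglycan that binds collagen fibrils, rose 9.41-fold and 8.43-fold. The related proteoglycans Lum and Dcn fell, Lum to 6.12 and 22 CPM from 129 CPM, and Dcn 2.87-fold and 1.78-fold. Of 19 genes of collagen processing and crosslinking, 13 rose and 3 fell, with Pcolce, which enhances the cleavage of procollagen, up 4.58-fold and 4.19-fold and its relative Pcolce2 down 3.99-fold and 4.06-fold. Of 17 basement membrane genes, 12 rose and 4 fell, and the largest changes were falls, in Nid2 (1052, 77.2 and 122 CPM, log2 -3.77 and -3.11) and Lama5 (log2 -3.07 and -3.59).

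Genes of the cytoskeleton and of adhesion were lower. Of 18 contractile and myofibroblast genes, 2 rose and 13 fell, with medians of -0.44 and -0.40. Acta2, the smooth muscle actin that marks myofibroblasts, changed little against CD_mock. It read 1789, 1773 and 1780 CPM in CD_mock, 1633, 1593 and 1626 CPM in Itga5-High_DM and 1600, 1628 and 1602 CPM in Itga5-Low_DM, and its log2 change was -0.14 and -0.14. Tpm1, a tropomyosin of stress fibres, fell 2.71-fold and 2.53-fold, and the cytoplasmic actins Actg1 and Actb, among the largest losses in CPM, fell 3.2-fold and 2.5-fold and 1.36-fold and 1.6-fold. The ribosomal RNA precursor Rn45s also lost CPM, at 4520, 4533 and 4528 CPM in CD_mock, 2190, 2197 and 2182 CPM in Itga5-High_DM and 3531, 3478 and 3503 CPM in Itga5-Low_DM, and its part in other changes was not tested. Of 17 integrin subunits 12 fell and 1 rose, Itga11, a collagen receptor of fibroblasts (3.46-fold and 3.67-fold). Itga3 and Itgb8 had the largest falls (log2 -4.53 and -5.28 and -5.59 and -4.77), and Itgb1, the partner of alpha 5, fell slightly (log2 -0.30 and -0.37).

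Itga5 itself, the gene of the sorted protein, was called in opposite directions, at 362, 356 and 350 CPM in CD_mock, 480, 496 and 494 CPM in Itga5-High_DM and 337, 343 and 347 CPM in Itga5-Low_DM. The Itga5-High_DM libraries lay above all others, and those of Itga5-Low_DM lay just below CD_mock, without overlap. The log2 changes were 0.46 ± 0.0176 and -0.06 ± 0.018. The second was no longer called in the fit of all 18 libraries, without CD_mock replicate 1 or 2, or without Itga5-Low_DM replicate 1 or 2 (log2 -0.04 to -0.06). Against HFD_mock the first became -0.37.

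Targets of the transcriptional coactivators YAP and TAZ, which respond to stiffness and cell spreading, fell in 12 of 16 cases and rose in 3. Those that rose were Ccn1, Amotl2 and Dlc1. With scaling by total counts or with HFD_mock as the reference, 1 rose. Ankrd1 read 56.4, 51.9 and 52.7 CPM in CD_mock, 8.02, 9.45 and 7.65 CPM in Itga5-High_DM and 7.08, 7.88 and 7 CPM in Itga5-Low_DM, without overlap, and Ccn2, a matricellular growth factor, fell 1.41-fold and 1.52-fold. The targets of TGF-b and Smad split evenly, with 9 higher and 9 lower of 20 and medians of 0.15 and 0.15. Scaling by total counts gave 8 and 9 with medians of -0.04 and 0.00, and HFD_mock as the reference 5 and 11. Lrrc15, a marker of TGF-b driven fibroblasts, rose from 0.259 to 19.6 and 17.6 CPM.

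**Figure D3:**
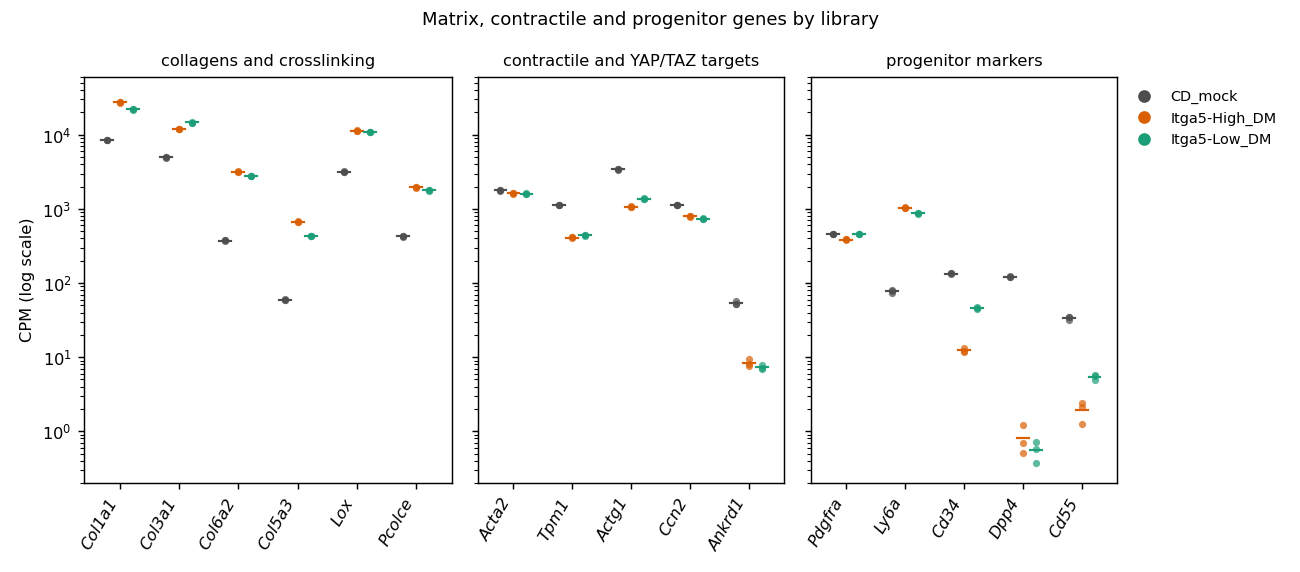
CPM on a logarithmic axis for 16 genes of matrix, contractility and progenitors in each of the 9 libraries; points are libraries and short lines are group means of 3 libraries. The 6 genes of the left panel are higher in every sorted library, Acta2 hardly moves, and Dpp4 falls to about 1 CPM or less while Ly6a rises.

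Cell cycle genes separated the sorted groups from each other. Of 25 genes of S phase and mitosis, 10 fell in both groups, 1 rose in both and 8 were higher than CD_mock in Itga5-High_DM and lower in Itga5-Low_DM, so that the medians were -0.02 and -1.08. Scaling by total counts gave none higher and 15 lower in both, with medians of -0.21 and -1.22, and DESeq2 size factors gave 1 and 12. All 25 were higher in Itga5-High_DM than in Itga5-Low_DM in the test between them, in which 52.4% of all genes were called (26.5% higher). Mki67, a marker of dividing cells, read 278, 272 and 267 CPM in CD_mock, 264, 266 and 265 CPM in Itga5-High_DM and 114, 119 and 116 CPM in Itga5-Low_DM. Only the fall in Itga5-Low_DM was called (log2 -1.23 ± 0.0239), while the value in Itga5-High_DM was -0.04. Mcm2, a replication licensing factor, fell in both (log2 -0.69 and -1.61).

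Inflammatory genes were lower for 12 of 19 and higher for 4 (7 against HFD_mock). Il6 fell 5.56-fold and 6.79-fold and the chemokine gene Ccl2 2.75-fold and 2.75-fold. Nos2, the inducible nitric oxide synthase, was the largest exception, at 1.25, 1.14 and 0.813 CPM in CD_mock, 17.7, 18.9 and 19.6 CPM in Itga5-High_DM and 2.83, 2.67 and 3.03 CPM in Itga5-Low_DM. Itga5-High_DM lay above all others, and both rises were called (log2 4.11 and 1.40). Interferon-stimulated genes rose in 12 of 20 cases and fell in 3.

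Markers of mesothelium, macrophages, endothelium and pericytes were lower in the sorted groups. All 7 tested mesothelial markers fell, and their summed level was 2148 to 2164 CPM in CD_mock, 105 to 108 CPM in Itga5-High_DM and 43.9 to 47.4 CPM in Itga5-Low_DM. Another 4 (Msln, Krt8, Krt18 and Muc16) were in the undifferentiated table only. The smallest fall among the 7 was that of Krt19, at log2 -0.20 in Itga5-High_DM and -1.51 in Itga5-Low_DM. Against HFD_mock, 1 of the 7 rose in both groups and 6 fell. Upk3b, an uroplakin of mesothelium, read 624, 613 and 606 CPM in CD_mock, 0.694, 0.437 and 0.086 CPM in Itga5-High_DM and 0.257, 1.54 and 0.316 CPM in Itga5-Low_DM. All 12 macrophage markers fell, with sums of 541 to 554 CPM in CD_mock, 49.8 to 50.8 CPM in Itga5-High_DM and 28.7 to 30 CPM in Itga5-Low_DM, as did all 11 endothelial markers, with 642 to 659 CPM in CD_mock, 116 to 118 CPM in Itga5-High_DM and 152 to 154 CPM in Itga5-Low_DM. Adgre1, which encodes the macrophage antigen F4/80, stood at 15.2, 0.179 and 0.27 CPM and Cdh5, the cadherin of endothelial junctions, at 119, 4 and 3.81 CPM in CD_mock, Itga5-High_DM and Itga5-Low_DM. In Itga5-High_DM part of the macrophage sum was Csf1r, the receptor for CSF1, at 30.7 CPM. Of 8 pericyte and smooth muscle markers 7 fell, with Rgs5 at 91, 0.507 and 0.968 CPM in CD_mock, Itga5-High_DM and Itga5-Low_DM. The part of these cell types in the changes of other lists, among them contractile, inflammatory, basement membrane and integrin genes, was not tested. No lymphocyte marker could be tested, and of 4 Schwann cell and neural markers 3 rose, such as S100b (log2 3.10 and 3.98).

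**Figure D4:**
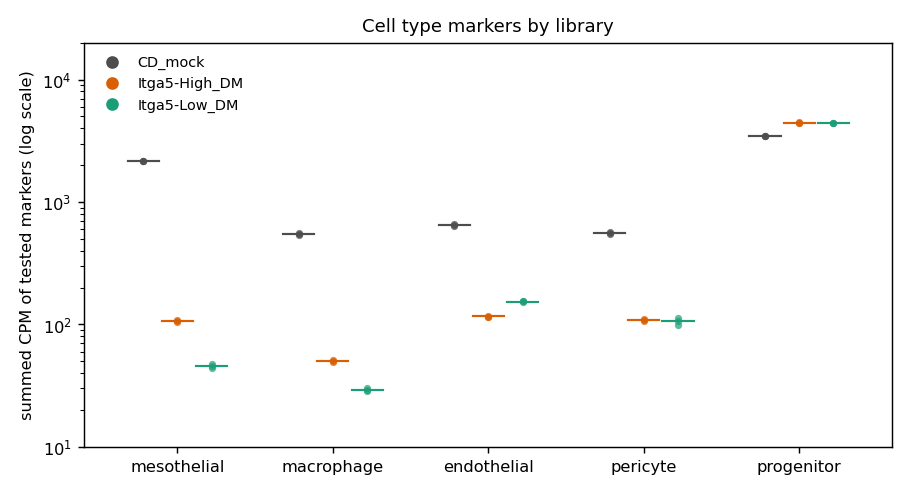
Summed CPM of the tested markers of 5 cell types in each library, on a logarithmic axis; points are libraries and lines are group means of 3 libraries. Mesothelial, macrophage, endothelial and pericyte sums are lower in all 6 sorted libraries. The progenitor sum is higher in them, although 9 of its 16 markers fell in both sorted groups.

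The progenitor markers moved in both directions. Of 16, 5 rose (31.2%) and 9 fell (56.2%), against 33.9% and 32.3% of all genes tested. With HFD_mock as the reference 8 rose and 6 fell. Pdgfra, the receptor that marks fat precursors, measured 460, 458 and 462 CPM in CD_mock, 387, 392 and 381 CPM in Itga5-High_DM and 457, 456 and 460 CPM in Itga5-Low_DM, and only the fall in Itga5-High_DM was called. Ly6a, which encodes Sca-1, read 77.7, 73 and 81.3 CPM in CD_mock, 1023, 1037 and 1049 CPM in Itga5-High_DM and 856, 869 and 883 CPM in Itga5-Low_DM, a rise of 13.4-fold and 11.3-fold. Dpp4, a marker of early interstitial progenitors, moved in the opposite direction, at 121, 121 and 123 CPM in CD_mock, 1.2, 0.7 and 0.516 CPM in Itga5-High_DM and 0.579, 0.711 and 0.379 CPM in Itga5-Low_DM. Pi16, another marker of that population, was lower in Itga5-High_DM and higher in Itga5-Low_DM (9.87, 2.8 and 17.6 CPM in CD_mock, Itga5-High_DM and Itga5-Low_DM).

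Genes with the largest changes at 10 CPM or more included several that were on none of the adipocyte gene lists above. Irx5, an Iroquois homeobox factor, had no count in CD_mock and was at least 292-fold and 224-fold higher in the sorted groups than a floor of 3 counts over the group. Itgad, an integrin alpha subunit of leukocytes, and A2m, the protease inhibitor alpha-2-macroglobulin, had 2 and 3 counts in all of CD_mock. They reached 151 and 49.8 CPM for Itgad and 194 and 49.9 CPM for A2m. The largest falls were those of the mesothelial genes Lrrn4, Upk1b, Upk3b, Gpm6a and Bnc1, with Pkhd1l1, Vat1l and Angptl7. Lrrn4, for example, went from 541, 541 and 531 CPM to 0.189, 0.262 and 0.344 and 0.0644, 0.652 and 0.189 CPM.

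Cells keep homeobox and other positional genes as a record of where in the body they arose. Several of these genes differed strongly between CD_mock and the sorted groups. This list was put together after the values were seen and is described without a test of its own. Levels in this paragraph are CPM without TMM scaling, so that genes found in 1 table can stand beside the others. Of 28 Hox genes tested 8 were higher (28.6%) and 13 lower (46.4%) in both groups, against 33.9% and 32.3% of all genes tested. With scaling by total counts 7 were higher and 19 lower. Hoxa5 read 49.1, 49.6 and 53.8 in CD_mock, 7.3, 5.9 and 6.2 in Itga5-High_DM and 7.15, 6.19 and 6.77 in Itga5-Low_DM, and Hoxa2, Hoxa3, Hoxa4, Hoxa6 and Hoxa7 were lower as well. The genes further toward the 5′ end of that cluster, Hoxa9 and Hoxa10, were higher, Hoxa10 with 1.52, 1.01 and 1.05 in CD_mock, 22.7, 24.6 and 22.3 in Itga5-High_DM and 26.3, 29.1 and 24 in Itga5-Low_DM. Hoxc10 showed 0.448, 1.23 and 0.788 in CD_mock, 64.3, 59.5 and 65.9 in Itga5-High_DM and 70.1, 68.8 and 74.2 in Itga5-Low_DM.

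Wt1, a factor of mesothelium and of visceral fat, stood, on the same unscaled CPM, at 185, 183 and 185 in CD_mock, 2.51, 1.58 and 1.47 in Itga5-High_DM and 2.07, 2.14 and 1.97 in Itga5-Low_DM. Tcf21, a factor of visceral preadipocytes, with 59.9, 60.4 and 63.3 CPM in CD_mock, was in the undifferentiated table only, as were Gata4 and Gata5. Tbx15, a T-box factor known from subcutaneous fat, gave 0.179, 0.506 and 0.525 in CD_mock, 72.9, 72.4 and 74.2 in Itga5-High_DM and 90.2, 93.5 and 94.8 in Itga5-Low_DM, and Shox2, a homeobox factor of limb and subcutaneous fat, gave 0.807, 1.08 and 0.788 in CD_mock, 51.4, 48.4 and 53.4 in Itga5-High_DM and 64.4, 61.5 and 64.7 in Itga5-Low_DM. In both the CD_mock libraries were near 1 CPM or below and the sorted ones above 40. Tbx5 and Pitx1, factors of the fore limb and hind limb, were in the differentiated table only. The labels give epididymal fat for CD_mock and no depot for the sorted cells, so a difference in tissue of origin and the effects of differentiation, sorting and culture cannot be told apart.

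**Figure D5:**
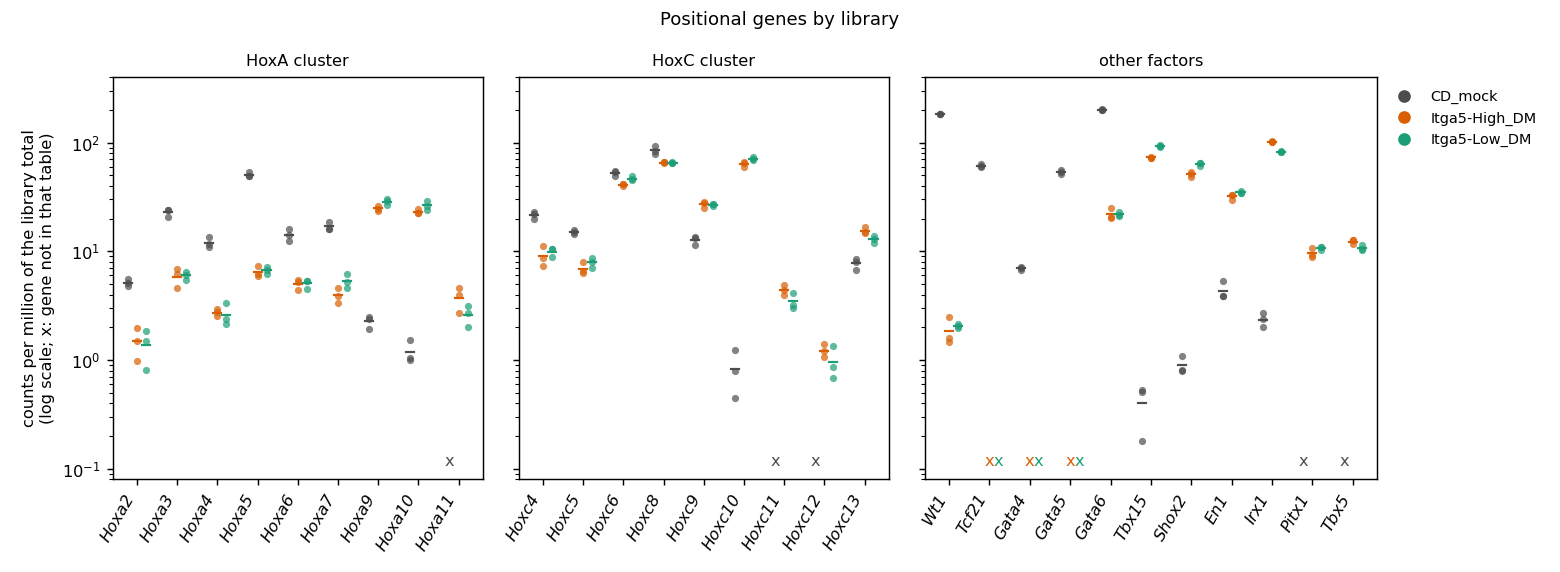
CPM without TMM scaling, on a logarithmic axis, of HoxA and HoxC genes and of 11 other positional factors in each library; points are libraries, lines are group means of 3 libraries and x marks a gene not in that group's table. Hoxa2 to Hoxa7 are lower and Hoxa9 and Hoxa10 higher in the sorted groups, and Wt1 and Tbx15 lie on opposite sides.

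Calls in opposite directions were few, at 399 genes (2.91%), of which 252 (1.84%) were higher in Itga5-High_DM and lower in Itga5-Low_DM and 147 (1.07%) the reverse. C7, a complement component made by stromal cells, was the 1 gene (0.00729%) with at least 1 log2 unit both ways, at 13.4, 10.5 and 12.7 CPM in CD_mock, 2.27, 1.49 and 1.89 CPM in Itga5-High_DM and 29.7, 29.7 and 30.9 CPM in Itga5-Low_DM. Itga5-Low_DM was highest and Itga5-High_DM lowest, with a difference of -3.96 ± 0.12 between them. Against HFD_mock the change of C7 in Itga5-High_DM was 0.34. Havcr2, which encodes the receptor TIM-3, was higher in Itga5-High_DM and lower in Itga5-Low_DM (2.74, 5.57 and 1.63 CPM in CD_mock, Itga5-High_DM and Itga5-Low_DM), and its change in Itga5-High_DM was -1.36 against HFD_mock. Between the sorted groups, 286 genes (2.08%) were higher and 299 (2.18%) lower in Itga5-High_DM by at least 1 log2 unit. The counts that follow are calls of any size, which took in 26.5% of all genes as higher in Itga5-High_DM and 26.0% as lower. Of 13 tested genes of triglyceride synthesis, 9 were lower in Itga5-High_DM than in Itga5-Low_DM and none was higher, and of 15 lipolysis genes 10 were lower and 1 higher. Collagen processing genes showed the reverse, with 16 of 19 higher in Itga5-High_DM and none lower, as did 19 of 20 glycolytic and hypoxia genes and 18 of 20 ribosomal protein genes.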

How the data were processed

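The authors sequenced poly(A) RNA from primary preadipocytes of mice. Their processing notes list STAR, fastp and featureCounts with build mm10, without versions or roles, and whether strand was used is not stated there. Both deposited tables hold estimated counts per transcript, not scaled to library size, with 1 table for undifferentiated and 1 for differentiated cells. The authors' lengths entered no test. For each gene symbol the transcript values were added up and rounded, and the tables were joined on symbols present in both. Symbols in only 1 table held at most 0.188% of a library's counts. Transcripts with fewer than 10 counts over all libraries numbered 919 in the undifferentiated table and 0 in the differentiated one. The lowest sums were 0.0185 and 10 counts. A symbol missing from the differentiated table may thus have had fewer than 10 counts per transcript. One missing from the undifferentiated table may have had few or none. Neither was taken as a measured 0 in the main fit.

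Counts were fitted with edgeR 4.0.16 in R 4.3.3, with filterByExpr, TMM scaling, the quasi-likelihood test and Benjamini-Hochberg adjustment over all 13722 genes, called at 0.05. The 9 libraries entered 1 fit with 1 coefficient per group. Because 2619 genes had a dispersion below 1e-04, standard errors come from a fit that kept it at 1e-04 or above. The spread of replicates was close to sampling noise. Depth sets the precision of low genes, and counts cover sampling error only. Same-numbered libraries did not deviate together (r from -0.0295 to 0.0279). With a spread so close to sampling noise, these r values cannot show whether libraries were paired. The main fit used no block, and a replicate block was an alternative. Alternatives were other scalings, DESeq2 1.42.0, other filters and joins, another reference group, all 18 libraries and leaving out each replicate. The model code was tested on simulated data.

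The members and gene lists were chosen with earlier results of these data known. Named genes were check genes (Itga5, Pparg, Cebpa, Adipoq, Fabp4, Plin1, Lep, Dlk1, Col1a1, Acta2, Ucp1), the 8 largest changes in each direction common to both groups at 10 CPM or more, the 4 largest changes in CPM each way, the 3 largest of each pattern of opposite calls and, in each list, the 3 largest changes and the largest against the majority. Unnamed gene models were passed over, and not every gene so taken is printed; some are not reported here. Outside this rule and chosen after their values were seen are Cebpb, Srebf1, Egr2, Plin2, Plin5, Cidea, Cd36, Lpl, Acsl4, Fasn, Scd1, Elovl6, Agpat2, Dgat2, Pck1, Pnpla2, Adrb3, Cfd, Insr, Irs2, Prdm16, Ppargc1a, Cox7a1, Dio2, Fkbp5, Postn, Dcn, Itgb1, Ccn1, Ccn2, Amotl2, Mki67, Csf1r, Pdgfra, Pi16 and the positional genes. Figures were drawn with matplotlib 3.10.9.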

Additional observations from a re-analysis of the deposited data

Results flagged for a closer look

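The change from CD_mock differed between the sorted groups by at least 1 log2 unit, with the difference called by edgeR's test, for 17 named genes. Written as the log2 difference of Itga5-High_DM minus Itga5-Low_DM, those higher in Itga5-High_DM were Nos2 (2.71), A2m (1.96), Havcr2 (1.76), Otop1 (1.67), Itgad (1.60), Cenps (1.32), D17H6S56E-5 (1.30) and Des (1.14). The genes lower in Itga5-High_DM were C7 (-3.96), Cttnbp2 (-3.44), Lum (-1.85), Ldb2 (-1.72), Pkhd1l1 (-1.62), Igfbp4 (-1.56), Cd55 (-1.54), Col11a1 (-1.09) and Ngfr (-1.06). The value of Pkhd1l1 rests on 5 and 20 counts in the sorted groups and that of Cttnbp2 on 4 and 58. The rise of Cttnbp2 in Itga5-Low_DM over CD_mock was not called without any 1 of the 3 CD_mock replicates, without Itga5-Low_DM replicate 1, with scaling by total counts, with DESeq2 or with no filter on low counts (log2 0.71 to 0.95).

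Symbols of the differentiated table that were missing from the other table, and so outside the joint test, included Aldh3b2 with a mean of 18.9 CPM, without TMM scaling, over the 6 sorted libraries, Sptlc3 with 12.4, Tbx5 with 11.5, Pitx1 with 10.1, Tmem45b with 10.1 and Ucp1 with 4.55. No level in CD_mock stands beside them.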

How the results depend on the processing

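The count of genes changed in both groups (9092) lay between 8552 (DESeq2) and 9410 (symbols missing from a table set to 0) under every alternative other than the test against 1 log2 unit (glmTreat). With it, 2413 genes were called in Itga5-High_DM, 2447 in Itga5-Low_DM, 1962 in both (893 higher, 1069 lower), 1 in opposite directions and 157 between the sorted groups. Scaling by total counts gave 3436 higher and 5775 lower, and 7870 of the 9092 genes kept their call while 12 turned. With HFD_mock as the reference, 7561 kept it and 169 turned. Leaving out 1 library at a time gave 8769 to 9026 genes in both groups, 345 to 399 opposite calls and 6473 to 7206 calls between the sorted groups.

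Among named genes, the 13 values that changed sign all did so with HFD_mock as the reference: Itga5 in Itga5-High_DM (-0.37), Dlk1 (2.37 and 1.81), Havcr2 in Itga5-High_DM (-1.36), C7 in Itga5-High_DM (0.34), Cavin2 (0.10 and 0.57), Acta1 in Itga5-Low_DM (-0.09), Rrm2 in Itga5-Low_DM (-0.05), Oasl2 (0.26 and 0.17) and Tubb3 (-0.90 and -1.19). The cause was not tested. Another 79 values lost their call, most of them in the test against 1 log2 unit. The replicate block, set by the replicate numbers in the titles, gave 9070 genes in both groups against 9092. Depth limits genes with a few counts in CD_mock, whose log2 change depends on the prior count.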

Other observations

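Of the symbols left out of the joint test, 1785 were in the undifferentiated table only and 266 in the differentiated table only. In CD_mock, 29 of the former reached 10 CPM of the unscaled library total. The highest were the epithelial keratin Krt8 (148, 145 and 139 CPM), Msln, the gene of mesothelin (127, 121 and 122 CPM), and Krt18, the keratin partner of Krt8 (78.5, 77.3 and 75.5 CPM). They were followed by Tcf21, Tmem108 (56.2, 56.7 and 58.7 CPM), Muc16, Gata5, Prnd, and Cgn, the tight junction protein cingulin (39.9, 40.2 and 39.1 CPM). In the sorted groups, 5 of the symbols in the differentiated table only reached 10 CPM.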
